A study of Mus musculus with 11 samples.

Results

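The 39 genes described here encode glutamate receptor subunits and the scaffold proteins that hold these receptors at the postsynaptic side of excitatory synapses. They are the rows of the count table whose symbol begins with Gria, Grik, Grin or Grm, or with Dlg, Dlgap, Shank or Homer, followed by a digit, and that had at least 10 counts in total over the 11 libraries. Of 40 such symbols 39 were kept, out of 17557 genes that met the same minimum and 22609 listed, and Grm6, a receptor known from retinal bipolar cells, was left out with 2 counts. The 39 genes comprise 23 receptor genes (4 AMPA, 5 kainate, 7 NMDA and 7 metabotropic) and 16 scaffold genes (5 Dlg, 5 Dlgap, 3 Shank and 3 Homer).

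Glutamate opens AMPA, kainate and NMDA receptors, which are ion channels built of 4 subunits each, and it activates the metabotropic receptors, which signal through G proteins. Beneath the membrane, Dlg proteins of the PSD-95 family bind NMDA receptors and AMPA receptor auxiliary subunits, Dlgap proteins link them to Shank, and Homer joins Shank to group I metabotropic receptors and to stores of intracellular calcium. In the cerebellum, Purkinje cells are known for Homer3 and Shank2, and mature granule cells for Grin2a, Grin2c and Grm4.

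RNA was sequenced from tissue labelled cerebellar hemisphere of untreated mice of both sexes, in 3 control, 3 NFKO, 2 AnkGKO and 3 DKO libraries. NFKO mice were Pcp2-Cre;NfascFx/Fx, AnkGKO mice Pcp2-Cre;AnkGFx/Fx (AnkG is the product of Ank3), and DKO mice carried Pcp2-Cre with both pairs of floxed alleles. The labels give no alleles for the control mice beyond a library name that calls them flox controls. The study's methods describe them as floxed without Cre, of both genes in one place and of either or both in another, whereas its results text writes them with Pcp2-Cre. The Pcp2 promoter drives Cre in Purkinje cells, so that each sample would hold deleted and undeleted cells together. Age is given as postnatal day 30 in the sample descriptions and 32 in the protocols, and the background as C57BL/6J in the former and a mix of C57BL/6J and 129 in the latter. The comparisons ask how loss of neurofascin, of AnkG or of both relates to the abundance of these synaptic transcripts.

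Gene counts were 38890851 to 55822361 per library (median 47428701), which makes 3 counts equal to 0.0546 to 0.078 CPM (counts scaled to a common library size after TMM normalization, the unit of every level below unless a length is named). Ank3 was at 360.5, 374.7 and 352.8 CPM in control and at 406.7, 385.7 and 384.8 in NFKO, against 155.8 and 200.1 in AnkGKO and 184.9, 159.7 and 174.1 in DKO. Its log2 fold change was -1.03 in AnkGKO (adjusted p = 0.00108 by edgeR) and -1.07 in DKO (adjusted p = 0.000461). Nfasc was at 717.9, 661.1 and 690.0 CPM in control, at 700.5, 622.5 and 635.4 in NFKO, at 717.1 and 953.1 in AnkGKO, and at 558.6, 606.0 and 602.9 in DKO. The Nfasc libraries of NFKO thus overlapped those of control, while the Ank3 libraries of AnkGKO and DKO lay well below them. Pcp2, a defining marker of Purkinje cells, reached 26.3 CPM in control replicate 1 and 28.3 in NFKO replicate 1, and no more than 2.14 in the other 9 libraries. Summed levels of 7 Purkinje cell markers were 1180 and 1270 CPM in those 2 libraries and 232 to 365 elsewhere, and those of 8 granule cell markers were 664 and 567 against 84.8 to 136. A list of 8 Hox genes, which mark the spinal cord and posterior hindbrain, summed to 328 to 549 CPM in every library. The defining markers of the labelled tissue were thus low in 9 of 11 libraries. Fitted changes of single glutamate receptor and scaffold genes that rest on the other 2 are given with and without them.

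Levels of the 39 genes were first set in order within control, per kilobase of exon so that genes can be compared. Grin1, which encodes the NMDA receptor subunit that every such channel needs, was highest at 41.0 ± 1.15 CPM per kilobase (SD, n = 3). The scaffold Dlg4, which encodes PSD-95, followed at 23.3 ± 0.297, and the AMPA receptor subunit Gria1 at 21.8 ± 1.10, a gap below 2 times the SD of Gria1. Leading their families were also Shank1 at 16.7 ± 0.881, Dlgap3 at 16.0 ± 0.195, the kainate receptor subunit Grik5 at 10.8 ± 0.515 and Homer3 at 6.73 ± 4.34. The metabotropic groups were led by Grm5 at 10.4 ± 2.21, Grm7 at 8.56 ± 0.756 and Grm3 at 6.59 ± 0.641. Grm4, of the group of Grm7, was within its spread of it at 7.25 ± 3.58. Its share exceeded that of Grm7 in control replicate 1 (55.2% against 39.1%) and NFKO replicate 1 (52.8% against 40.6%), and was smaller elsewhere. At the bottom stood Dlgap5, better known as a spindle protein of dividing cells, at 0.0559 ± 0.00624, and the NMDA receptor subunits Grin2b at 0.356 ± 0.0681 and Grin2a at 0.405 ± 0.0212. Grin2b and Grin2a did not differ beyond their spread.

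**Figure D1:**
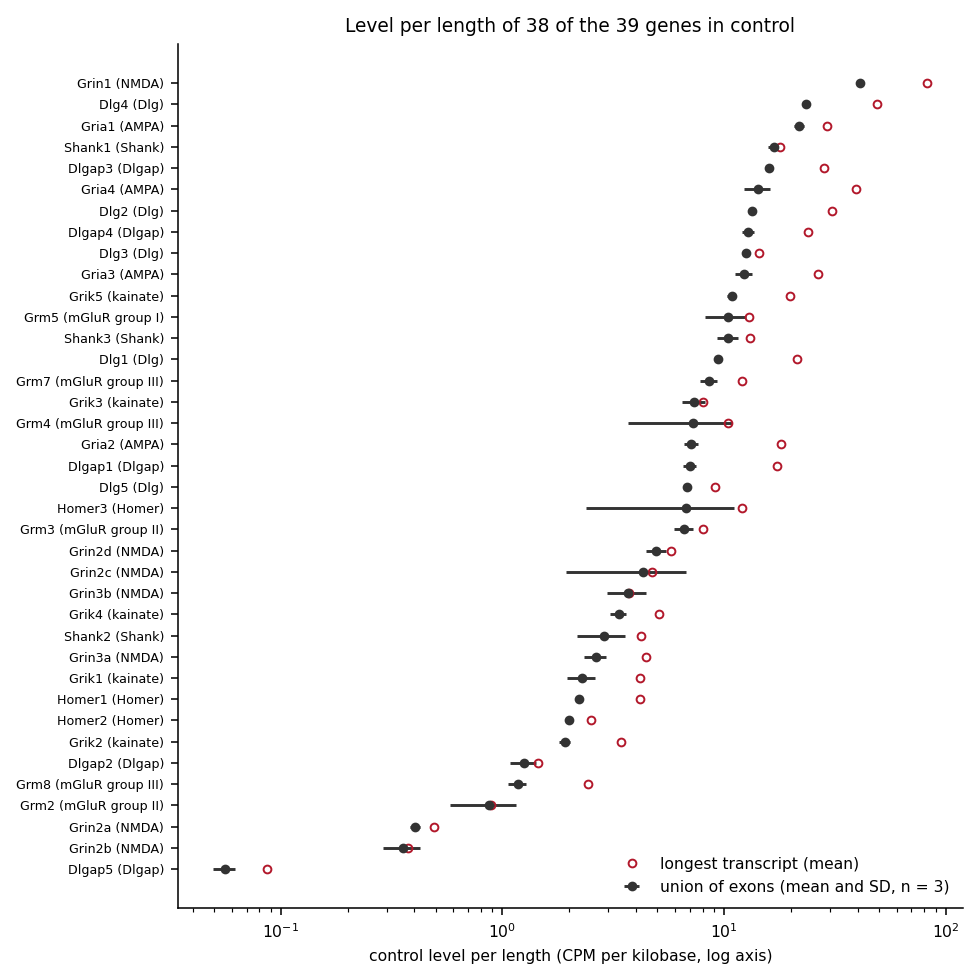
Control level per kilobase of 38 of the 39 genes, on a log axis, with filled points for the mean and SD of 3 control libraries over the union of exons and open points for the mean over the longest transcript. Grin1 leads with either length at 41.0 and 82.7 CPM per kilobase, Dlgap5 is last, and the AMPA receptor genes change order with the length used.

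The order depended on which transcript length was used, since the union of annotated exons is longer than any single transcript. Over the longest transcript Gria4 (39.3 CPM per kilobase) stood above Gria1 (29.1), and the control share of Gria1 among the 4 AMPA receptor genes changed from 39.4% ± 2.19 (SD, n = 3) to 25.8%. By union length the other AMPA shares in control were 25.6% ± 2.41 for Gria4, 22.2% ± 1.81 for Gria3 and 12.9% ± 1.38 for Gria2, the subunit that makes AMPA channels impermeable to calcium. Among the 4 GluN2 genes, which set the kinetics of NMDA receptors, Grin2d held 50.8% ± 10.7, Grin2c 41.2% ± 13.0, Grin2a 4.20% ± 1.10 and Grin2b 3.76% ± 1.46. Grin2d, a subunit known from the brainstem, spinal cord and early development, and Grin2c thus made up most GluN2 transcripts, and Grin2a was a minor part in each of the 11 libraries (3.05% to 7.01%). The GluN2 order was not the same in every library: Grin2c exceeded Grin2d in control replicate 1 (56.2% against 38.5%) and in NFKO replicate 1 (58.3% against 33.2%), and was below it in the other 9. Homer3 made up 48.6% to 57.0% of Homer transcripts in those 9 libraries and 74.3% and 74.4% in the same pair. Exons of Grin1, Grm7, Homer3 and Grin3b overlap genes on the other strand over 11.9%, 10.2%, 22.9% and 32.4% of their bases, so reads of these 4 genes could be split or shared with a neighbour if counting ignored strand, which the sources used here do not state.

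None of the 39 genes passed the threshold of adjusted p under 0.05 and absolute log2 fold change of at least 0.6 in any comparison in edgeR's quasi-likelihood test, its p-values adjusted over all genes by Benjamini-Hochberg. Of all genes tested, 0.365% passed in NFKO against control, 0.165% in AnkGKO, 0.0228% in DKO, 0.615% in DKO against NFKO, 0.171% in DKO against AnkGKO and 0.53% for the interaction of the knockouts. A test for any difference among the 4 genotypes also called 0 of the 39 genes by adjusted p alone, with 0.723% of all genes called. At these background rates fewer than 1 call among 39 genes would be the share of the whole table. DESeq2 with a local dispersion fit also called 0 of them in the 6 comparisons, and 3 (Shank3, Homer2 and Grik3) in the test for any difference, where it called 6.48% of all genes. At an unadjusted p under 0.05, edgeR counted 5 in that last test (Shank3, Grik3, Homer2, Gria1 and Dlg1), or 12.8% of the 39 against 11.3% of all genes.

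The fitted changes of the 39 genes were small and leaned below control, most in DKO. Their median log2 fold change was -0.07 in NFKO, -0.03 in AnkGKO and -0.15 in DKO, beside -0.00497, -0.00506 and -0.00064 over all genes. Fitted values below control numbered 31 of 39 in NFKO, 24 in AnkGKO and 35 in DKO, while 51.7%, 51.3% and 50.2% of all genes lay below. These 3 comparisons share their control libraries and are not independent of each other. In genes averaging at least 10 CPM, a level that 35 of the 39 reached, the shares below control were 56.5%, 50.8% and 50.6% of 10239 genes, against 30, 22 and 31 of the 35. Set against the control mean, the median over the 39 genes was between -0.01 and 0.02 in the control libraries, -0.01, -0.03 and -0.19 in NFKO, -0.03 and -0.04 in AnkGKO, and -0.09, -0.28 and -0.08 in DKO (log2 difference). All 3 DKO libraries were thus below the 3 control libraries, and NFKO replicate 3 and DKO replicate 2 stood lowest. Without NFKO replicate 3 the NFKO median was -0.02 with 24 of 39 below control, and without DKO replicate 2 the DKO median was -0.09 with 31 below. Without control replicate 1 the AnkGKO median was -0.000171, with 20 of 39 below control. With the summed level of granule cell markers as a covariate the DKO median was -0.10 and the AnkGKO median 0.01.

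**Figure D2:**
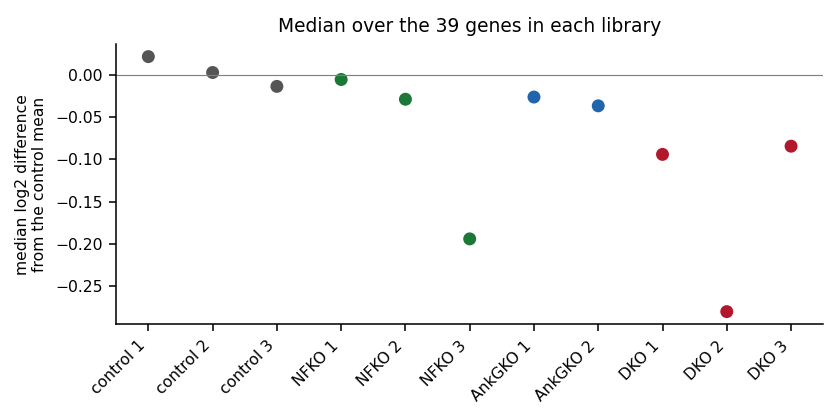
Median over the 39 genes of the log2 difference from the control mean, 1 point per library, coloured by genotype. The DKO libraries sit at -0.09, -0.28 and -0.08 and NFKO replicate 3 at -0.19, while the control libraries lie between -0.01 and 0.02.

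All 6 of 6 motor neuron markers tested had every DKO library above every control library, beside 7.65% of all genes. The gap was narrow for Prph (lowest DKO library 101.8 CPM, highest control library 101.7) and Isl1 (2.58 against 2.44), and wider for the others. The sum of the 6 markers was 479 to 597 CPM in DKO and 217 to 388 in control. In AnkGKO their sum was 266 and 590 and in NFKO 239 to 464. The sum of 7 astrocyte markers was 7190 to 7640 CPM in DKO, 8470 to 8900 in AnkGKO, 5990 to 7090 in NFKO and 6440 to 6620 in control. Of its members 5 of 7 had a higher mean in DKO than in control, and 6 of 7 in AnkGKO. Of 7 pan-neuronal markers the sum was 8620 to 9270 CPM in DKO and 7580 to 9040 in control, with 4 of 7 higher in mean. Without overlap, 2 lay above control and 1 below it, beside 7.65% and 6.8% of all genes. Nefl made the largest difference in that sum, with a mean of 2688 CPM in DKO and 2107 in control, while Snap25 averaged 3283 and 3522. Of 7 microglial markers the sum was 396 to 511 CPM in DKO and 359 to 437 in control, with 7 of 7 higher in mean. Sums of 5 oligodendrocyte precursor markers were 441 to 552 CPM in DKO, 542 and 633 in AnkGKO, 568 to 609 in NFKO and 579 to 599 in control. No marker on these lists was at 0 counts in a library. The part of these cell types in the values of the 39 genes was not tested. In bulk tissue fewer cells of a type and less RNA per cell cannot be told apart.

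**Figure D3:**
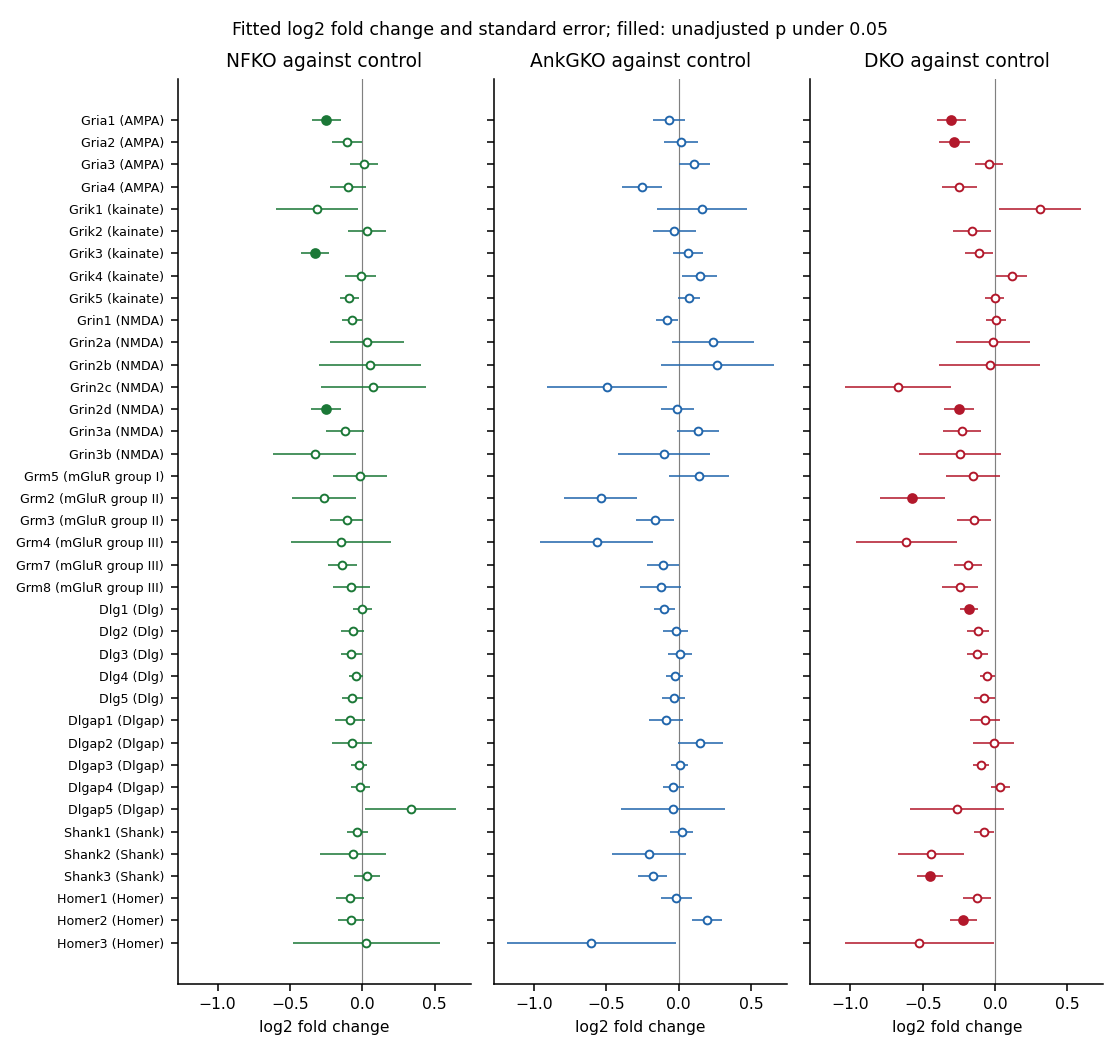
Fitted log2 fold change of 38 of the 39 genes against control in NFKO, AnkGKO and DKO, with its standard error (SE) as a bar; filled points have an unadjusted p under 0.05. In DKO 34 of 38 points lie below zero and 7 are filled, all below zero, while AnkGKO has no filled point.

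In NFKO, 3 of the 39 genes (7.69%) had an unadjusted p under 0.05 below control and 0 above it, beside 3.22% and 4.48% of all genes, and the smallest adjusted p among the 39 was 0.306. The 3 were receptor genes, namely Grik3, Gria1 and Grin2d. Leaving out control replicate 1 and NFKO replicate 1, 1 lay below control and 1 (Grin2c) above it, beside 1.87% and 2.35% of all genes. Grik3, a kainate receptor subunit, was at 84.3, 67.4 and 71.3 CPM in control and at 59.0, 60.2 and 58.6 in NFKO. All 3 NFKO libraries lay below the lowest control library, and AnkGKO (80.4 and 75.0) and DKO (69.3, 60.7 and 76.2) overlapped control. The fitted difference was -0.33 on the log2 scale (SE 0.09, adjusted p = 0.306 by edgeR), and the adjusted p was 0.0484 by DESeq2, within a range of 0.0484 to 1 over all alternatives. Without control replicate 1 and NFKO replicate 1 the change of Grik3 was -0.22 (unadjusted p = 0.0581), and in DKO against NFKO it was 0.22 (SE 0.09, adjusted p = 0.29 by edgeR).

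Gria1, the AMPA receptor subunit known as GluA1, encoded at bases 56902153 to 57221080 of chromosome 11 (GRCm39), was at 184.5, 183.5 and 168.4 CPM in control and at 170.2, 154.5 and 126.5 in NFKO. The NFKO libraries overlapped control at the top, and NFKO replicate 3 was the lowest of all 11 libraries. Within each pair of control and NFKO libraries of the same number, NFKO was the lower. The log2 fold change was -0.25 with an SE of 0.10 and an adjusted p of 0.562 by edgeR, and it was -0.14 without NFKO replicate 3. Grin2d was at 38.0, 43.1 and 35.6 CPM in control and at 27.4, 36.1 and 34.4 in NFKO, or -0.25 on the log2 scale (SE 0.10, adjusted p = 0.589 by edgeR). Its lowest library was NFKO replicate 1, the groups overlapped, each NFKO library was below the control library of its number, and the value was -0.16 without control replicate 1 and NFKO replicate 1.

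Among genes above control in NFKO, the smallest p-values belonged to Dlgap5, Shank3 and Grik2, and none was below 0.3. Dlgap5 was at 0.338, 0.423 and 0.381 CPM in control and at 0.517, 0.539 and 0.39 in NFKO (log2 fold change 0.33, SE 0.32). This rests on few reads, between 13 and 21 counts in the control libraries. Grik2, a kainate receptor subunit, differed by 0.03 on the log2 scale (SE 0.13), and this became -0.05 without control replicate 1 and NFKO replicate 1. Groups did not overlap in 2 of the 39 genes below control (Dlg4 and Grik3) and in 0 above it, beside 6.51% and 7.42% of all genes. Leaving out control replicate 1 and NFKO replicate 1, these counts were 12 and 1, beside 16.2% and 15.7% of all genes. Dlg4 was nonetheless close to level: 312.6, 306.6 and 305.2 CPM in control, 290.5, 303.2 and 302.6 in NFKO, 301.8 and 302.6 in AnkGKO, and 298.4, 287.8 and 304.9 in DKO. Its log2 fold changes were -0.04, -0.03 and -0.05, each with a SE of 0.05 to 0.06, and its highest library was 1.09 times its lowest.

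In AnkGKO, 0 of the 39 genes had an unadjusted p under 0.05 by edgeR in either direction, beside 3.21% of all genes above control and 2.18% below, and DESeq2 counted 1. The smallest p below control belonged to Grm2, a group II metabotropic receptor that in the cerebellum marks Golgi and unipolar brush cells. Grm2 was at 7.88, 6.66 and 3.90 CPM in control, at 4.87 and 3.58 in AnkGKO and at 3.71, 4.34 and 4.35 in DKO. Control replicate 3 lay among the knockout libraries. Its log2 fold change was -0.54 in AnkGKO (SE 0.25, adjusted p = 0.934 by edgeR) and -0.57 in DKO (SE 0.22, adjusted p = 0.619). Without control replicate 1 and NFKO replicate 1 the AnkGKO value was -0.32 and the DKO value -0.35. Gria4, an AMPA receptor subunit with fast kinetics, was at 291.4, 223.5 and 252.9 CPM in control and at 195.7 and 234.3 in AnkGKO, or -0.25 on the log2 scale (SE 0.14, adjusted p = 0.968 by edgeR). The largest of these values was control replicate 1, the groups overlapped, and the value was -0.15 without that library and NFKO replicate 1. Shank3 had a log2 fold change of -0.18 in AnkGKO (SE 0.10) and of 0.03 in NFKO (SE 0.09), the former -0.09 without the same 2 libraries.

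Above control in AnkGKO stood Homer2, Grik4 and Gria3. Homer2, a scaffold that tethers group I metabotropic receptors, was at 26.9, 27.7 and 28.5 CPM in control and at 30.8 and 32.6 in AnkGKO, so that the groups did not overlap. The fitted difference was 0.20 on the log2 scale (SE 0.10, adjusted p = 0.957 by edgeR). Grik4 was at 33.6, 29.1 and 33.7 CPM in control and at 32.4 and 38.6 in AnkGKO, and Gria3 at 158.5, 141.8 and 169.3 against 153.7 and 183.6. Both overlapped control, with log2 fold changes of 0.14 (SE 0.12) and 0.11 (SE 0.11). The Grik4 value ranged from 0.0141 to 0.265 over the alternatives. Non-overlapping libraries were found for 2 of 39 genes above control (Grin3a and Homer2) and 3 below (Dlg1, Dlg4 and Shank3), beside 11.7% and 12.3% of all genes, and for 4 and 5 without control replicate 1 and NFKO replicate 1, beside 16.2% and 17.4%.

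In DKO, 7 of the 39 genes (17.9%) had an unadjusted p under 0.05 below control and 0 above it, while 3.74% and 4.04% of all genes did so. The 7 were the scaffolds Shank3, Dlg1 and Homer2 and the receptors Gria1, Gria2, Grin2d and Grm2, and the smallest adjusted p was 0.405. All 3 DKO libraries lay below all control libraries in 12 of 39 genes (30.8%) and above them in 0, beside 6.8% and 7.65% of all genes. The 12 were Dlg1, Dlg2, Dlg3, Dlg4, Dlgap3, Gria1, Gria2, Grin2d, Grm4, Homer2, Shank2 and Shank3. Leaving out control replicate 1 and NFKO replicate 1, 5 of the 39 genes had an unadjusted p under 0.05 below control and 0 above it, beside 2.83% and 2.35% of all genes. In the same fit 33 of 39 lay below control, beside 49.8% of all genes, and 15 did not overlap below control, beside 11.8%. In the fit with all libraries, every family had most of its members below control. These were 5 of 5 Dlg, 4 of 4 AMPA, 7 of 7 metabotropic, 3 of 3 Shank and 3 of 3 Homer genes. The rest were 4 of 5 Dlgap, 6 of 7 NMDA and 3 of 5 kainate receptor genes. Without control replicate 1 and NFKO replicate 1, Homer3 lay above control (log2 fold change 0.15).

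Shank3, which encodes a master scaffold of the postsynaptic density and spans bases 89383826 to 89444464 of chromosome 15 (GRCm39, plus strand), had the smallest p in DKO. It was at 108.2, 88.6 and 92.7 CPM in control, 100.7, 107.0 and 88.2 in NFKO, 83.7 and 86.7 in AnkGKO, and 67.2, 75.2 and 69.9 in DKO. The 3 DKO libraries were the lowest of the 11, AnkGKO lay between them and control, and NFKO overlapped control. The log2 fold change of DKO against control was -0.45 (SE 0.09, unadjusted p = 0.000332, adjusted p = 0.405 by edgeR), and all 19 alternatives gave between -0.51 and -0.36. The adjusted p was 0.00101 by DESeq2, the lowest of a range that reached 0.896. Control replicate 1, the highest library, mattered most: without it the change was -0.36.

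Shank3 was the only one of the 39 genes with an adjusted p under 0.05 in any of the 6 comparisons by edgeR. Against NFKO its log2 fold change in DKO was -0.48 (SE 0.09, adjusted p = 0.031 by edgeR), short of the fold threshold, and 0.889% of all genes passed adjusted p alone there. DESeq2 gave an adjusted p of 2.46e-05. The adjusted p was above 0.05 in 9 of 19 alternatives, among them the replicate number as a block (0.0508), the fit of NFKO and DKO alone (0.0589), the granule cell covariate (0.0756) and the fit without control replicate 1 and NFKO replicate 1 (0.0819). Leaving out control replicate 3 (0.0532), NFKO replicate 1 (0.11), NFKO replicate 2 (0.132), DKO replicate 1 (0.108) or DKO replicate 3 (0.107) also ended that call. The change itself stayed between -0.56 and -0.41. Against AnkGKO it was -0.27 (SE 0.10, adjusted p = 0.533), and against the sum of the single knockout changes, the interaction, it was -0.30 (SE 0.13, adjusted p = 0.469). Within the Shank family, the Shank3 share of transcripts per length was 33.0% to 35.7% in control, 35.3% to 36.9% in NFKO, 31.8% and 32.6% in AnkGKO and 28.4% to 32.9% in DKO. Shank1 was at 166.2 to 184.4 CPM in control and 156.3 to 176.3 in DKO (log2 fold change -0.08 with SE 0.07), and its highest library of all was 1.2 times its lowest.

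The sequence just before the start of Shank3 is shown because this gene carried the smallest p-value of the set. It is the exon-free part, chr15:89383728-89383810 of GRCm39 on the plus strand, of the 250 bases before the RefSeq start, taken from the RefSeq promoter table (build GRCm38.p6) and placed by exact match. Capitals mark the GC box GGGCGG, here read on the other strand.
Shank3: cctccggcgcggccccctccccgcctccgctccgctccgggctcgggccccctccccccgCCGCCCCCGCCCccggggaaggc
GGGCGG occurred 4 times in the whole 250 bases of Shank3, 2 of them in the stretch shown. Searched on both strands of the 250 bases, it was in 32.7% of 32851 promoters in the table, and in 17 of the 40 promoters of the 26 genes described here that had an entry. CAGATG, an E-box read on both strands, was in 14.4% of all promoters and in 3 of these 40, and in none of the Shank3 window. These matches describe letters only.

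Of the other scaffolds in DKO, Dlg1, which encodes SAP97, was at 144.8, 145.2 and 137.9 CPM in control and at 117.5, 124.3 and 135.8 in DKO, with NFKO (145.7, 146.1 and 135.8) overlapping control and AnkGKO (130.2 and 135.8) below it. Its log2 fold change in DKO was -0.18 (SE 0.06, adjusted p = 0.608 by edgeR). Homer2 was at 24.4, 26.6 and 20.5 CPM in DKO, below each of its control libraries and further below AnkGKO. On the log2 scale it differed by -0.22 from control (SE 0.09, adjusted p = 0.629) and by -0.42 from AnkGKO (SE 0.10, adjusted p = 0.27), where DESeq2 gave an adjusted p of 0.0104. The range over alternatives of the latter was 0.0104 to 0.779. The interaction term of Homer2 was -0.34 (SE 0.14, adjusted p = 0.428), AnkGKO lying above control and DKO below it. Shank2 was at 56.7, 39.8 and 36.6 CPM in control and at 36.4, 27.9 and 33.4 in DKO, a log2 difference of -0.44 (SE 0.23) in which control replicate 1 stood apart, and -0.23 (SE 0.14) without that library and NFKO replicate 1.

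**Figure D4:**
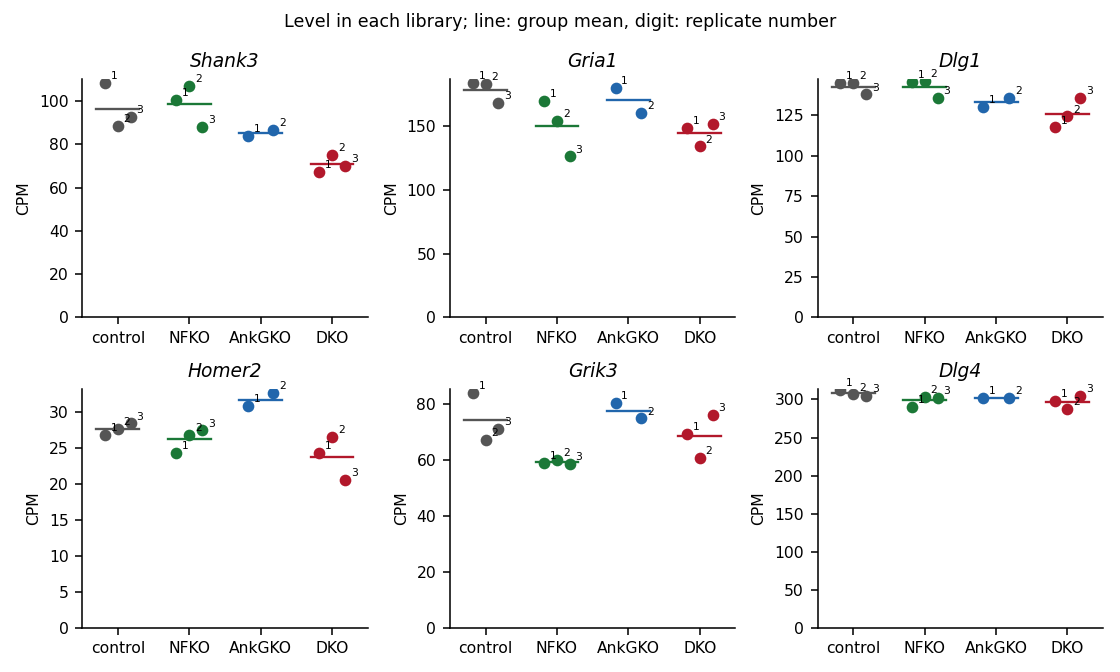
CPM of Shank3, Gria1, Dlg1, Homer2, Grik3 and Dlg4 in each library, on linear axes from zero, with a line at each group mean and a digit for the replicate. The DKO points of Shank3 (67.2 to 75.2) lie below all other libraries, whereas the Dlg4 points differ by no more than 1.09 times.

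Among receptor genes in DKO, Gria1 was at 149.2, 134.3 and 151.7 CPM, below its 3 control libraries, and Gria2 at 166.1, 147.4 and 168.9 against 183.5, 210.6 and 192.1 in control. Their log2 fold changes were -0.30 (SE 0.10, adjusted p = 0.588 by edgeR) and -0.28 (SE 0.10, adjusted p = 0.608). Gria1 was lower on this scale in NFKO as well, and its interaction term was 0.02 (SE 0.15). The Gria1 share among AMPA receptor transcripts was 37.4% to 41.7% in control and 36.4% to 37.9% in DKO. Grin2d was at 30.5, 34.4 and 33.2 CPM in DKO, or -0.25 on the log2 scale against control (SE 0.10, adjusted p = 0.619 by edgeR), while its obligate partner Grin1 was at 475.7, 424.8 and 467.2 against 467.6, 442.4 and 452.4 in control. The change of Grin1 was 0.01 (SE 0.07).

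Above control in DKO the smallest p-values belonged to Grik1, Grik4 and Dlgap4. Grik1, a kainate receptor subunit, was at 17.4, 15.7 and 13.0 CPM in control and at 12.1, 28.4 and 16.8 in DKO, so that its fitted value of 0.31 on the log2 scale (SE 0.28) rested on DKO replicate 2 and was -0.09 without that library. On the log2 scale Grik4 was 0.11 above control (SE 0.11) and Dlgap4 0.04 (SE 0.07), both overlapping control.

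Set directly against the single knockouts, most of the 39 genes had a lower fitted value in DKO. Fitted values were lower than in NFKO for 29 of 39 genes (median -0.05) and lower than in AnkGKO for 32 (median -0.11), beside 49.9% and 49.2% of all genes. The former count was 23 without control replicate 1 and NFKO replicate 1, 22 without NFKO replicate 2 and 18 without DKO replicate 2. DKO libraries did not overlap those of NFKO in 5 of 39 genes below and 2 above, beside 10% and 9.32% of all genes. They did not overlap those of AnkGKO in 8 below (Dlgap3, Gria1, Gria2, Grin2d, Grin3a, Homer2, Shank2 and Shank3) and 1 above (Homer3), beside 11.3% and 12.4%. Compared with NFKO, 2 of 39 genes had an unadjusted p under 0.05 below (Shank3 and Dlg1) and 1 above (Grik3), beside 8.29% and 7.86% of all genes. Against AnkGKO, 4 lay below (Homer2, Shank3, Gria2 and Grin3a) and 0 above, beside 4.47% and 4.01%. In either direction, this count was 2 without DKO replicate 2 and with the replicate block. It was 7 under DESeq2 and with the granule cell covariate. Leaving out control replicate 1 and NFKO replicate 1, 6 lay below, beside 3.96% of all genes. Grin3a, an NMDA receptor subunit that lowers calcium permeability, was at 38.5 and 37.6 CPM in AnkGKO and at 33.4, 24.7 and 30.9 in DKO. The difference was -0.36 on the log2 scale (SE 0.15, adjusted p = 0.552 by edgeR). The interaction had an unadjusted p under 0.05 in 2 of 39 genes, Homer2 and Shank3, both below zero, beside 5.63% of all genes below zero. In the main fit all of these shares of unadjusted p except that for DKO below AnkGKO (10.3%) were under the share of the whole table. That exception rests on 4 genes, a count that moved with the fit as given above.

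Several of the 39 genes differed widely between libraries of the same genotype. The 5 genes with the largest ratio of highest to lowest control library, at least 1 CPM on average, were Homer3 (2.86 times), Grin2c (2.57), Grm4 (2.33), Grm2 (2.02) and Shank2 (1.55). Homer3, the Homer protein of Purkinje cell spines, was at 59.0 CPM in control replicate 1 and 58.5 in NFKO replicate 1, and at 20.6 to 24.4 in the other 9 libraries. Grin2c was at 78.7 and 68.4 CPM in the same 2 libraries and at 27.0 to 44.8 elsewhere, and Grm4, a presynaptic receptor of granule cell axons, at 77.7 and 62.6 against 30.7 to 37.7. These were the libraries with high Pcp2, and in them Gabra6, a granule cell marker, was at 84.2 and 59.0 CPM, against no more than 4.41 elsewhere.

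**Figure D5:**
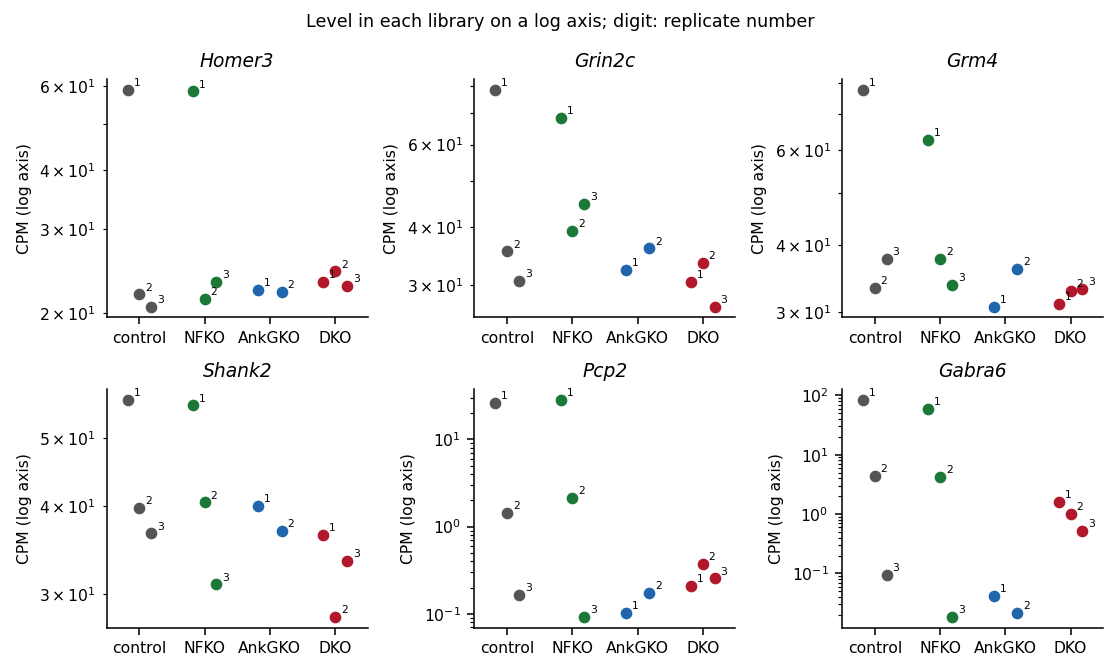
CPM in each library on log axes for Homer3, Grin2c, Grm4 and Shank2 and for the Purkinje cell marker Pcp2 and the granule cell marker Gabra6, with a digit for the replicate. Replicate 1 of control and of NFKO is highest in all 6 panels, at 59.0 and 58.5 CPM for Homer3 and 26.3 and 28.3 CPM for Pcp2.

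Replicate 1 was at least 1.5 times the mean of its other 2 replicates in both control and NFKO for 3 of 39 genes, Homer3 (2.78 and 2.62 times), Grin2c (2.39 and 1.63) and Grm4 (2.19 and 1.75), and for 1.83% of all genes. Shank2 (1.48 and 1.56 times) was near that ratio. Grin2a, although listed with these genes as a granule cell marker, was at 6.86 CPM in control replicate 1 and 7.33 and 7.62 in the others. In NFKO its replicate 1 was the highest, at 8.82 CPM against 8.26 and 5.26. Grm5, a group I metabotropic receptor, was lowest within its group in these 2 libraries, at 85.0 and 95.5 CPM, while the range elsewhere was 83.0 to 137.7. Ddx49, which overlaps Homer3 on the other strand, was at 24.5, 22.5 and 27.1 CPM in control and did not stand apart in replicate 1.

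For Homer3 the same kind of stretch is shown because it had the largest ratio of highest to lowest control library. It is the exon-free part, chr8:70735399-70735476 of GRCm39 on the plus strand, of the 250 bases before the RefSeq start (172 of which GENCODE vM39 places in Homer3 exons), from the same RefSeq table.
Homer3: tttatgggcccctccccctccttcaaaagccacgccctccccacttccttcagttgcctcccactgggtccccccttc
It holds neither motif, so nothing is in capitals, while GGGCGG occurred 4 times in the remainder of the 250 bases. Grm4 had no entry in the table.

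As the control mean of Homer3, Grin2c and Grm4 included such a library and those of AnkGKO and DKO did not, their fitted changes were large and uncertain. The log2 fold changes in DKO were -0.52 (SE 0.51) for Homer3, -0.67 (SE 0.37) for Grin2c and -0.61 (SE 0.35) for Grm4. In AnkGKO they were -0.60 (SE 0.58), -0.50 (SE 0.41) and -0.57 (SE 0.39). The adjusted p by edgeR was between 0.669 and 0.998 for all 6 values. Leaving out control replicate 1 and NFKO replicate 1, the DKO values were 0.15 (SE 0.09) for Homer3, -0.12 (SE 0.11) for Grin2c and -0.13 (SE 0.10) for Grm4, and the AnkGKO values were 0.07 (SE 0.10), 0.05 (SE 0.13) and -0.09 (SE 0.11). Both the DKO and the AnkGKO libraries of Homer3 then lay above those of control. In NFKO the log2 fold change of Grin2c was 0.08 (SE 0.36) with all libraries and 0.35 (SE 0.12) without them, at an adjusted p of 0.975 by edgeR.

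Other synaptic genes, not all of them postsynaptic, were taken from a list of 50, of which 49 were tested. The list holds AMPA receptor auxiliary subunits, delta receptors, neuroligins, LRRTMs, cerebellins, kinases and adaptor proteins. None of the 49 was called in any of the 3 comparisons with control by edgeR, beside 0.365%, 0.165% and 0.0228% of all genes. Their median log2 fold change was -0.05 in NFKO, -0.02 in AnkGKO and -0.06 in DKO. Below control lay 37, 26 and 33 of 49, beside 51.7%, 51.3% and 50.2% of all genes. At an unadjusted p under 0.05, 1 of 49 lay below control in NFKO (Camk2b) and 3 in AnkGKO (Baiap2, Camk2b and Nptx1). In DKO 8 of 49 did so (Arc, Baiap2, Lin7b, Nlgn3, Nptx1, Nptxr, Olfm1 and Shisa9). The shares of all genes below control were 3.22%, 2.18% and 3.74%. Above control lay 0 in each, beside 4.48%, 3.21% and 4.04% of all genes.

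Baiap2, which encodes the actin-binding Shank partner IRSp53, had the smallest p of this list in DKO. It was at 45.3, 36.7 and 33.3 CPM in control, 32.7 and 28.0 in AnkGKO, and 27.2, 27.9 and 26.1 in DKO, and the DKO difference was -0.51 on the log2 scale (SE 0.11, adjusted p = 0.427 by edgeR). Its NFKO libraries were at 41.0, 36.6 and 35.9 CPM, and control replicate 1 was the highest library. The DKO libraries of Baiap2 were the lowest of all, but the highest of them (27.93) was level with AnkGKO replicate 2 (27.96). Shisa9, an auxiliary subunit of AMPA receptors, was at 32.6, 38.3 and 32.7 CPM in control and 24.4, 27.2 and 27.9 in DKO (log2 fold change -0.38, SE 0.10, adjusted p = 0.528). Camk2b, a calcium-dependent kinase, was at 490.1, 490.5 and 471.5 CPM in control and at 431.7, 428.7 and 438.1 in NFKO (log2 fold change -0.16, SE 0.07, adjusted p = 0.639), without overlap. Lin7b, a small scaffold, followed in NFKO with -0.31 (SE 0.15), and Nptx1, a secreted pentraxin that clusters AMPA receptors, in AnkGKO with -0.30 (SE 0.12). Nptx1 was at 346.9, 288.9 and 295 CPM in control, highest in replicate 1, and at 271.6 and 232.4 in AnkGKO. The smallest p-values above control belonged to Cacng8 (0.18) and Lin7c (0.12) in NFKO, Tnik (0.18) and Neto1 (0.27) in AnkGKO, and Dynll2 (0.13) and Grid1 (0.14) in DKO, as log2 fold changes with unadjusted p above 0.05.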

How the data were processed

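Polyadenylated RNA of 11 mouse libraries was analysed from a table of raw gene counts that the authors deposited. Per the labels, the processing notes name FastQC 0.12.1, Trimmomatic 0.39, STAR 2.7.11a, DESeq2 1.40.2 and build GRCm39, and the authors also deposited a signal table of counts divided by a size factor per library (0.815 to 1.16), used only as a check. Reads are single-end by the labels and paired by the study's methods, which also give 3 AnkGKO mice where 2 libraries were analysed here. Lines that name no gene held 42.7% to 43.8% of the counts and were left out. No column of other samples was present.

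Genes with at least 10 counts in all were tested with edgeR 4.0.16 (TMM, robust quasi-likelihood) in R 4.3.3 over the 4 genotypes, with Benjamini-Hochberg adjustment over 17557 genes. Scripts were tested on simulated data. Levels per length used GENCODE vM39. The members and lists were chosen with earlier results of these data known. Named were, for each knockout against control, the 3 genes above and the 3 below with the smallest p, plus Gria1, Shank3 and Dlg4, known markers (Grm4, Grin2a, Grin2c, Homer3, Shank1, Shank2) and the 5 widest control spreads. A gene of the set that the rule also names is counted but not reported here. Alternatives were DESeq2 1.42.0 with a local fit, its size factors, the expression filter or no filter, only the libraries compared, the replicate block, a granule cell covariate, libraries left out, no fold threshold and transcript length. The replicate numbers came from the labels, which do not say what they mark. Deviations of same-numbered libraries correlated at 0.57, 0.47 and 0.26 between control and NFKO. Between NFKO and DKO they correlated at 0.056, 0.45 and 0.27, and the remaining pairs of groups included values down to -0.47. Control and NFKO may thus be paired by number, but the main fit holds no term for this. Its SE and p-values are those of unpaired groups, and only the replicate block uses the number.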

Additional observations from a re-analysis of the deposited data

How the results depend on the processing

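Of the 39 genes, the number called against control was 0 in each comparison under all 20 alternatives, and the medians moved by less than 0.0811 (SD of the median between libraries), that of AnkGKO turning to 0.0103 with the granule cell covariate. Over all genes, DESeq2 called 159 against 64 by edgeR in NFKO, 102 against 29 in AnkGKO, 44 against 4 in DKO, 418 against 108 in DKO against NFKO, 99 against 30 in DKO against AnkGKO and 318 against 93 for the interaction. By adjusted p alone, 1 gene (Shank3) was called in DKO against NFKO, and DESeq2 called 3 in the test for any difference, which ranged from 0 to 1 with single libraries left out. At an unadjusted p under 0.05, AnkGKO gave 1 gene under DESeq2, under no filter, with only the compared libraries and with the replicate block, and 0 to 2 with a library left out. NFKO gave 1 (without control replicate 2) to 4 with a library left out. Leaving out an AnkGKO library leaves 1, assumed to vary like the other groups.

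With the replicate block the medians were -0.0734 in NFKO, -0.0424 in AnkGKO and -0.146 in DKO. The block ended the adjusted p of Shank3 in DKO against NFKO (0.0508) and no other call. Directions turned for Grik2 in NFKO without both libraries of high Pcp2 (-0.0457), and for Gria1 in AnkGKO with the granule cell covariate (0.0157). With single libraries left out, log2 fold changes ranged from -0.0312 to 0.122 for Shank3 and from -0.0852 to 0.178 for Grik2 in NFKO, from -0.0243 to 0.23 for Gria3 and from -0.155 to 0.0161 for Gria1 in AnkGKO, and from -0.092 to 0.552 for Grik1 and from -0.0137 to 0.0807 for Dlgap4 in DKO. Over the longest transcript the family shares were 25.8% for Gria1, 49% for Grik5, 39.3% for Dlg4, 39.8% for Dlgap3 and 50.9% for Shank1, and the other 5 leading shares moved by less than 1 SD. The causes were not tested. Depth was similar in all libraries, and only Dlgap5 rested on few reads.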
